A study of Mus musculus with 6 samples.

Results

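The immunity-related GTPases (IRG) are interferon-induced proteins of the cell interior that gather on the membrane of vacuoles holding parasites or bacteria and help to break them open. In the mouse most of the family is encoded in gene clusters on chromosomes 11 and 18, and interferon-gamma is its main inducer. This cytokine binds its receptor, the kinases JAK1 and JAK2 become active, and the signal reaches DNA elements called GAS (gamma-activated sites). Elements called ISRE (interferon-stimulated response elements) are read by IRF1 and, under interferons of type I, by a complex that holds IRF9. Blood stem cells carry interferon receptors, and Irgm1 is known for its part in keeping these cells functional in the mouse.

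The RNA of 10 named IRG genes was examined among 20097 listed genes: Irgm1, Irgm2, Igtp, Iigp1, Ifi47, Tgtp1, Tgtp2, Gm4841, F830016B08Rik and Gm12185. They were chosen by name as members of the family, with their difference between the groups in these same libraries already known, so that this difference is described below and not tested. RNA came from mouse c-Kit+ bone marrow cells, which are rich in blood stem and progenitor cells, in 3 libraries with the genotype WT and 3 whose genotype is Runx1 KO, Runx1 being the gene of a blood transcription factor. No treatment is given for either group, and the sources used here do not give strain, age or sex, nor the means or time of Runx1 disruption. Nor is it said whether the libraries of a group came from separate animals, so the p-values below measure the spread between these samples, which may be technical.

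Values are normalised read counts, that is, reads per gene over the library's size factor, and the libraries held from 23297526 to 26793380 recovered reads. Runx1 was not lower under the label of the knockout: its normalised read count was 3109 ± 356 under WT and 6399 ± 494 under Runx1 KO (SD, n = 3). The loss of single exons is not visible in counts for whole genes, and the groups are therefore named by their labels throughout. Across 15410 tested genes, limma gave an adjusted p under 0.05 (a called gene in what follows) for 1631 genes that were higher under Runx1 KO and 1739 that were lower. With scaling by library totals 63.5% of the calls were higher, against 48.4%. Kit, which encodes the marker the cells are labelled by, had 8301 ± 280 and 12649 ± 1093 normalised reads (SD, n = 3). Of 6 progenitor markers (Kit, Cd34, Flt3, Meis1, Myb, Gata2), 5 were called higher and 0 lower, and their summed level was 29858 to 34832 under WT and 45927 to 49487 under Runx1 KO.

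Sequences upstream of the chromosome 11 genes are given first, because 6 of the 7 members' windows hold letters like those of GAS or ISRE elements. A match of letters is a description and was not tested as an acting element. RefSeq promoter windows (GRCm38.p6) were held for 7 of the 10 members, all on chromosome 11. The 250 bases before each start were searched on both strands for GAAA, any 2 bases and GAAA again (ISRE-type) and for TTC, any 3 bases and GAA (GAS-type); overlapping matches of a motif were kept as separate ones. In each line below capitals mark the matches, the sequence runs 5′ to 3′ along the gene's strand, and the 30 bases of Irgm1, which lie in an annotated exon, are given short.

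Irgm2 (chr11:58214882-58214941, plus strand): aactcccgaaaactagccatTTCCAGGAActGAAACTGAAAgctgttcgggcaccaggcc
Igtp (chr11:58199491-58199550, plus strand): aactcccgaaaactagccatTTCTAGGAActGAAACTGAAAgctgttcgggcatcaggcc
Tgtp1 (chr11:48992295-48992354, minus strand): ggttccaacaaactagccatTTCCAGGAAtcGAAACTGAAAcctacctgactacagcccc
Tgtp2 (chr11:49064254-49064313, minus strand): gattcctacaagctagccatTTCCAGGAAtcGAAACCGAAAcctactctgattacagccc
Gm12185 (chr11:48927229-48927288, minus strand): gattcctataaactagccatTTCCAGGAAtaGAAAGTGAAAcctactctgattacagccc
Irgm1 (chr11:48871428-48871457, minus strand): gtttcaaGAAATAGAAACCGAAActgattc
Gm12250 (chr11:58183749-58183808, plus strand): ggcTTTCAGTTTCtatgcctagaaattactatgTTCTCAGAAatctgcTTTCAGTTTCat

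In Irgm2, Igtp, Tgtp1, Tgtp2 and Gm12185 a GAS-type match was followed by an ISRE-type match with 2 bases between them, the starts lying 11 bases apart in all 5. The GAS-type match of these genes started between 45 and 88 bases before the RefSeq start. Irgm1 held 2 overlapping ISRE-type matches, at -30 and -24, and no GAS-type match, and Ifi47 held neither. Gm12250, an IRG gene outside the 10 and known as Irgb10, held 2 ISRE-type matches on the other strand, at -91 and -46, on either side of a GAS-type match at -61. RefSeq starts differ from the gene starts of GENCODE M21, the annotation used below for gene positions. They lie 263, 1926, 15359 and 65044 bases downstream for Irgm1, Tgtp1, Irgm2 and Gm12185, and upstream for Gm12250. The stretches of Tgtp1, Irgm2 and Gm12185 therefore lie inside the gene spans given below. Of 32817 promoter windows of the same length in the genome, 2.97% held the ISRE-type letters, 7.01% the GAS-type letters, and 30 windows (0.0914%) held both with starts at most 20 bases apart. These windows belong to genes related by descent: over the 250 bases, Tgtp2 and Gm12185 were 92.5% identical, Igtp and Irgm2 68.9%, and Tgtp1 62.6% with either Tgtp2 or Gm12185. All other pairs of members had 46.1% to 55.4%. Members compared with Irgq, a distant relative on another chromosome, had 47.0% to 51.7%.

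**Figure D1:**
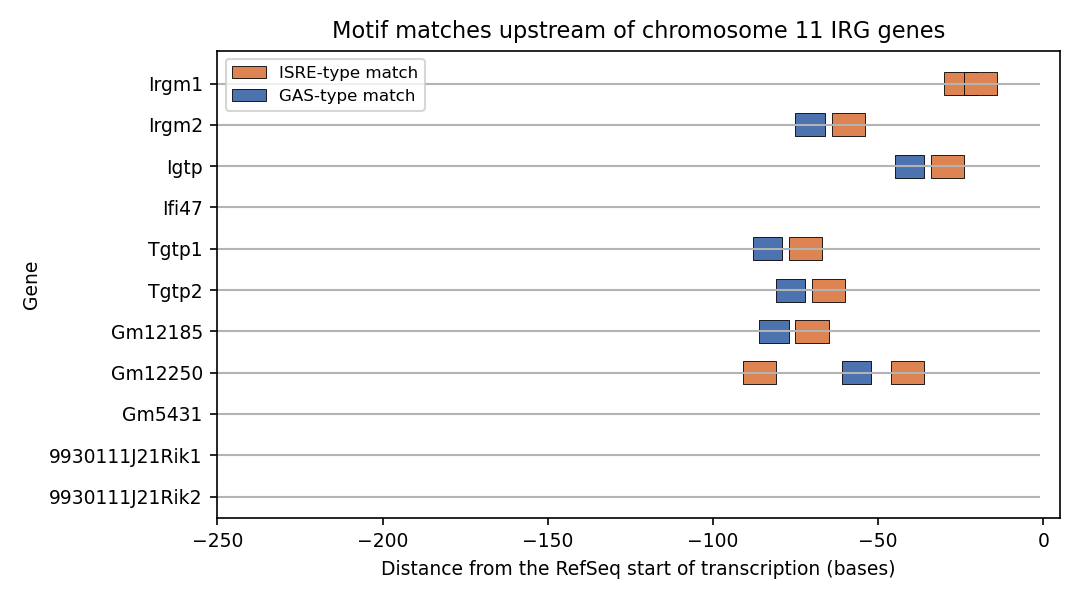
Positions of ISRE-type and GAS-type matches (coloured boxes) in the 250 bases before the RefSeq start of 11 chromosome 11 IRG genes, the x axis giving the distance from that start in bases. The 5 genes with the adjacent pair (Irgm2, Igtp, Tgtp1, Tgtp2, Gm12185) show it between -88 and -25, and Ifi47, Gm5431, 9930111J21Rik1 and 9930111J21Rik2 show no match.

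Summed over the 10 members, the normalised read count was 4377, 6113 and 4740 in WT replicates 1 to 3 and 15992, 25094 and 14932 in the libraries labelled Runx1 KO, replicates 1 to 3. The lowest library labelled Runx1 KO stood 2.44-fold above the highest labelled WT. The means were 5077 ± 916 and 18672 ± 5586 (SD, n = 3), a ratio of 3.68, and without Runx1 KO replicate 2, the highest library, the ratio was 3.05. As a share of all recovered reads the family went from between 0.0165% and 0.0234% of a library to between 0.0615% and 0.102%. In bulk RNA, more cells of a type that makes these transcripts and more transcript per cell cannot be told apart.

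All 10 members passed the filter on low values, and in all 10 the 3 libraries labelled Runx1 KO lay above the 3 labelled WT, where 21.4% of tested genes did so. All 10 were also among the genes called higher, which were 10.6% of those tested. Of the 10, all but Ifi47 also had a log2 change of at least 1, as 2.77% of tested genes did with an adjusted p under 0.05. As the members were chosen with this contrast known, nothing is read from these counts. The median log2 change of the members was 2.78, against -0.00424 over all tested genes. Members differed widely in size of change, from a ratio of 1.98 for Ifi47 to 23.6 for F830016B08Rik.

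**Figure D2:**
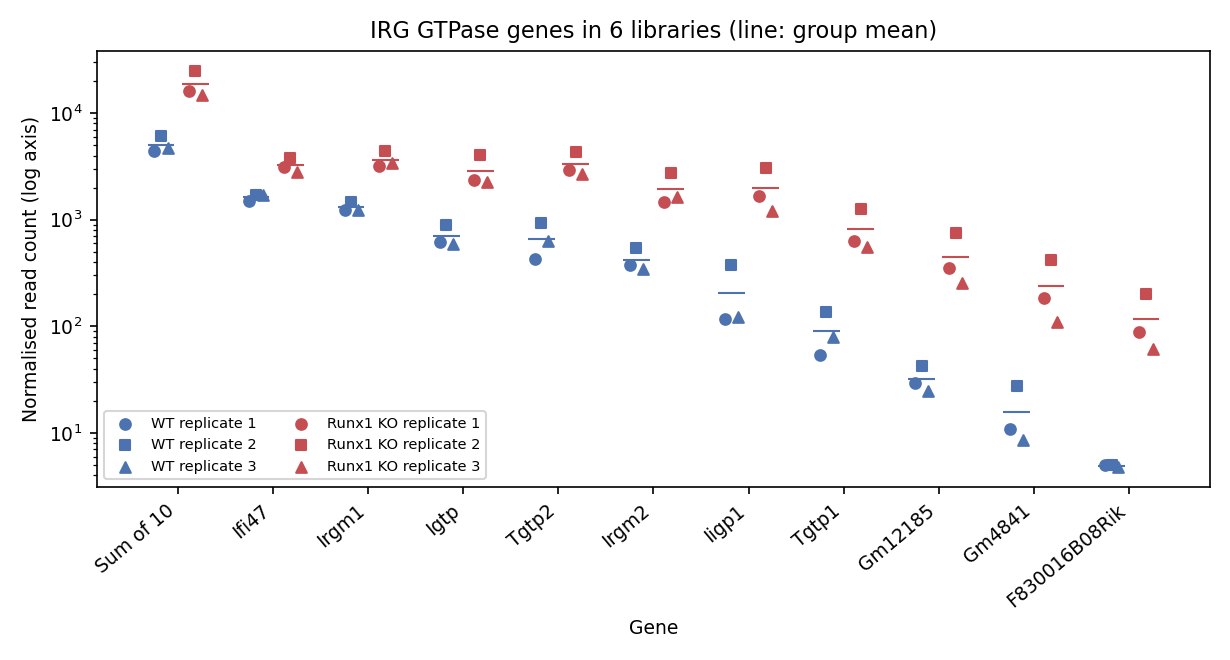
Normalised read counts (log axis) of the summed family and of each member in the 6 libraries, blue for WT and red for Runx1 KO, with symbols for the replicate number and lines for group means. In every column the 3 red points lie above the 3 blue ones, and the square of Runx1 KO replicate 2 is the highest red point.

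The regulatory members are Irgm1, Irgm2 and Igtp, the last also called Irgm3; they sit on the cell's own membranes and hold the other IRG proteins in an inactive state there. Irgm1 (ENSMUSG00000046879; GRCm38 chromosome 11, 48861968 to 48871683, minus strand) had normalised read counts of 1246, 1459 and 1230 in WT replicates 1 to 3 and of 3203, 4430 and 3378 in Runx1 KO replicates 1 to 3. Its means were 1312 ± 128 and 3670 ± 664 (SD, n = 3), and its log2 change was 1.47 (SE 0.13). It moved least of the 3 regulators.

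Irgm2 (ENSMUSG00000069874; chromosome 11, 58199618 to 58222782, plus strand) had 376, 546 and 347 normalised reads under WT and 1477, 2734 and 1619 under Runx1 KO. Its log2 change was 2.17 (SE 0.26). Its neighbour Igtp (ENSMUSG00000078853; chromosome 11, 58199556 to 58207591, plus strand) had 622, 889 and 590 normalised reads under WT and 2369, 4064 and 2237 under Runx1 KO, a log2 change of 2.01 (SE 0.25). In both genes replicate 2 was highest in each group, while under Runx1 KO the lowest library was replicate 1 for Irgm2 and replicate 3 for Igtp. They share 162 exon bases in the GENCODE M21 models and 243 of the 50-base windows of their transcripts, 11.8% of those of Igtp, so a part of their reads cannot be assigned to one of them by sequence.

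The effector members bind to the vacuole itself. Iigp1 (ENSMUSG00000054072; chromosome 18, 60376027 to 60392634, plus strand), the much-studied Irga6, had 118, 376 and 123 normalised reads in WT replicates 1 to 3 and 1665, 3060 and 1202 under Runx1 KO. The ratio of its means was 9.61, and its log2 change 3.37 (SE 0.51). WT replicate 2 stood far above the other WT libraries, and without it the ratio of means was 16.4. Ifi47 (ENSMUSG00000078920; chromosome 11, 49076587 to 49096974, plus strand), also called Irgd, was the most abundant member under WT and the one that moved least. It had 1483, 1709 and 1706 normalised reads under WT and 3092, 3818 and 2802 under Runx1 KO, a log2 change of 0.98 (SE 0.12).

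Tgtp1 and Tgtp2 are near-identical copies that both encode the effector Irgb6. Of the 50-base windows of their annotated transcripts, 81.2% of those of Tgtp1 and 86.6% of those of Tgtp2 occur in a transcript of another gene, nearly always in that of the partner (2480 windows). Tgtp1 (ENSMUSG00000078922; chromosome 11, 48985327 to 48994172, minus strand) had 53.4, 136 and 78.7 normalised reads under WT and 638, 1260 and 557 under Runx1 KO. Tgtp2 (ENSMUSG00000078921; chromosome 11, 49057194 to 49064206, minus strand) had 432, 922 and 627 under WT and 2923, 4358 and 2710 under Runx1 KO. How reads that match both copies were counted is not given in the sources used here, so the pair is best read as a sum. That sum had a mean of 750 ± 289 under WT and 4148 ± 1281 under Runx1 KO (SD, n = 3), a ratio of 5.53, with no overlap between the groups.

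The remaining members, Gm12185, Gm4841 and F830016B08Rik, had the fewest reads under WT and the largest log2 changes. F830016B08Rik (ENSMUSG00000090942; chromosome 18, 60293380 to 60303016, plus strand) had 5 recovered reads in each WT library, against a floor of 3 reads, and 84, 202 and 61 recovered reads in Runx1 KO replicates 1 to 3. Gm4841 (ENSMUSG00000068606; chromosome 18, 60268305 to 60273272, minus strand) had 10.9, 27.2 and 8.63 normalised reads under WT and 184, 423 and 110 under Runx1 KO. Both were near silent in the WT libraries and clearly detected in all 3 libraries labelled Runx1 KO. Their log2 changes on the log2(value + 1) scale were 4.12 (SE 0.43) and 3.80 (SE 0.58).

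The size of these changes rests in part on Runx1 KO replicate 2. Without it the ratio of means was 15.1 against 23.6 for F830016B08Rik and 9.45 against 15.3 for Gm4841, and without WT replicate 2 it was 24.5 for Gm4841. Gm12185 (ENSMUSG00000048852; chromosome 11, 48904656 to 48992226, minus strand) had 29.7, 42.4 and 24.9 normalised reads under WT and 353, 746 and 256 under Runx1 KO, a log2 change of 3.65 (SE 0.40). Its gene model spans other IRG genes of the cluster and shares 223 exon bases with Tgtp1. Of its 50-base transcript windows 19.5% occur in other genes, among them Gm5431 (628 windows) and 9930111J21Rik1 (467 windows), which were not called changed.

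Per kilobase of annotated exon, which allows genes to be compared, the order of levels under WT began with Ifi47 at 660 ± 52.5 normalised reads per kb, followed by Igtp at 346 ± 81.2 (SD, n = 3), and these did not overlap. Irgm1 at 226 ± 22.0 and Tgtp2 at 225 ± 84.0 came next and overlapped, and Irgm2 at 115 ± 29.1 overlapped with Tgtp2. Iigp1 and Tgtp1, at 35.3 ± 25.4 and 27.9 ± 13.2, overlapped with each other and with no higher member. Gm12185 and Gm4841 followed at 5.79 ± 1.61 and 5.49 ± 3.58, and F830016B08Rik was lowest at 1.50 ± 0.0381. The SD of F830016B08Rik reflects the size factors alone, as each WT library had 5 recovered reads, and it leaves out counting error. Under Runx1 KO the first 3 places were held by Igtp at 1429 ± 504, Ifi47 at 1309 ± 212 and Tgtp2 at 1134 ± 305, each overlapping with the next. F830016B08Rik was again lowest, at 35.3 ± 22.4, and overlapped with Gm12185 at 80.8 ± 46.5. Reads of Tgtp1, Tgtp2, Igtp, Irgm2 and Gm12185 that fit more than 1 gene limit this order.

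The make-up of the family sum moved with the label. Irgm1 and Ifi47 together held 62.4%, 51.8% and 61.9% of it in WT replicates 1 to 3 and 39.4%, 32.9% and 41.4% in Runx1 KO replicates 1 to 3. The chromosome 18 members Iigp1, Gm4841 and F830016B08Rik held 3.05%, 6.69% and 2.87% under WT and 12.1%, 14.7% and 9.20% under Runx1 KO. Tgtp1 and Tgtp2 held 11.1% to 17.3% and then 21.9% to 22.4%. Irgm1 and Ifi47 thus held less of the sum under Runx1 KO than under WT, and none of these ranges overlapped. The gain was not confined to members that were low under WT. Mean shares went from 12.7% to 17.9% for Tgtp2, from 13.7% to 15.3% for Igtp and from 8.28% to 10.3% for Irgm2.

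**Figure D3:**
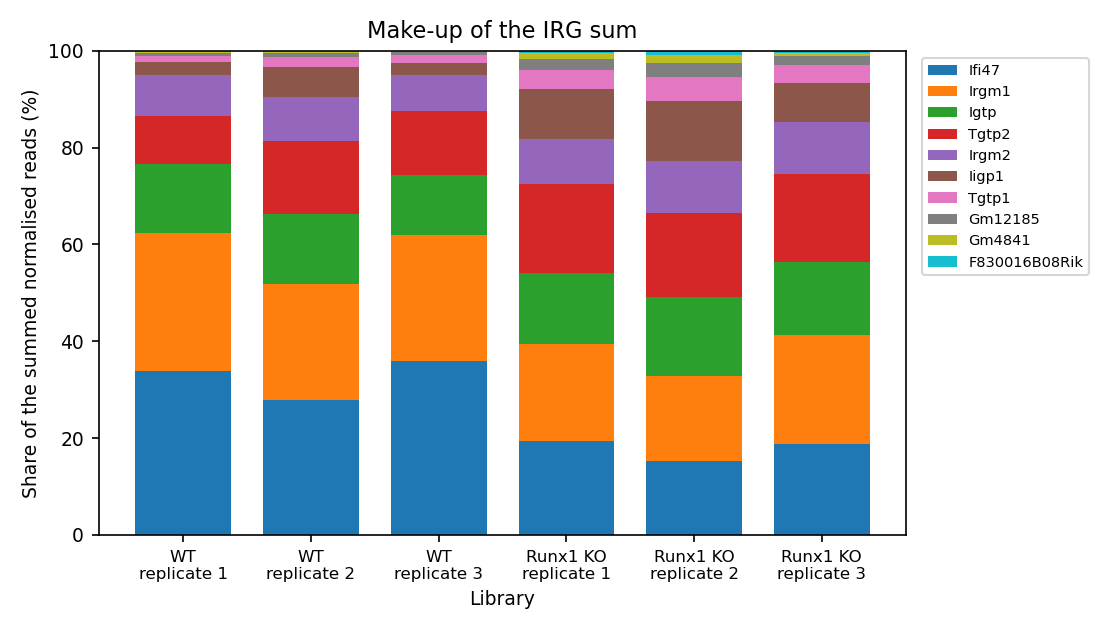
Share of each member in the summed normalised reads (%), 1 bar per library. The lower 2 segments, Ifi47 and Irgm1, together go from 51.8% or more in the WT bars to 41.4% or less in the Runx1 KO bars.

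The highest library of a group was the same one in nearly all members, while the lowest varied. Runx1 KO replicate 2 was the highest of its group in 10 of 10 members, while it was the highest of its group in 27.8% of all tested genes. Under WT, replicate 2 was the highest in all members but F830016B08Rik, which had equal recovered reads in the 3 libraries. Of all tested genes, 35.1% had WT replicate 2 as the highest of its group. The lowest library under Runx1 KO was replicate 3 in 8 members and replicate 1 in 2, against 35.5% and 37.1% of all tested genes. The guanylate-binding protein (GBP) genes, large GTPases that interferon-gamma also induces, had Runx1 KO replicate 2 highest in 9 of 10 and replicate 3 lowest in 10 of 10. In a list of type I interferon targets Runx1 KO replicate 1 was highest in 18 of 26 genes and replicate 2 in 6. Replicate 1 was also the most frequent highest library over all tested genes, at 41.2%. Interferon-gamma targets were mixed, with Runx1 KO replicate 2 highest in 10 of 17 genes and replicate 1 in 7. Among 6 tested IRG genes outside the members, replicate 2 was highest in 2 and replicate 1 in 3. These are counts over genes that share 3 libraries, and they were not tested.

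Other IRG genes outside the 10 members moved in part. Of 10 names in that list 8 were in the files and 6 were tested, and 2 rose and 0 fell. Of all tested genes 10.6% rose and 11.3% fell. Gm4951, on chromosome 18, rose from 27.7, 51.5 and 35.5 normalised reads under WT to 437, 664 and 244 under Runx1 KO (log2 change 3.45, SE 0.39, adjusted p 0.00279). Gm12250, the Irgb10 locus that M21 annotates as a processed pseudogene, rose from 154, 224 and 176 to 822, 1336 and 783 (log2 change 2.38, SE 0.23, adjusted p 0.00198). In both genes the groups lay well apart.

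The other 4 did not pass. The tandem IRG genes 9930111J21Rik1 and 9930111J21Rik2, which lie between the members on chromosome 11, had log2 changes of -0.11 (SE 0.26, adjusted p 0.783) and -0.21 (SE 0.22, adjusted p 0.518), with overlapping groups. Gm5431 had 86.1, 51.5 and 94.0 normalised reads under WT and 152, 148 and 101 under Runx1 KO, a log2 change of 0.81 (SE 0.28, adjusted p 0.0787). Irgq, a distant relative, had a log2 change of 0.32 (SE 0.09, adjusted p 0.0531) and passed with edgeR (adjusted p 0.0491), with DESeq2, with TMM or library-total scaling and without Runx1 KO replicate 1 (adjusted p 0.0234). The upstream windows of Gm5431, 9930111J21Rik1 and 9930111J21Rik2 held neither motif, as did that of the member Ifi47, and that of Gm12250 held both. No window was held for Gm4951. No match says only that these letters are not in the window.

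**Figure D4:**
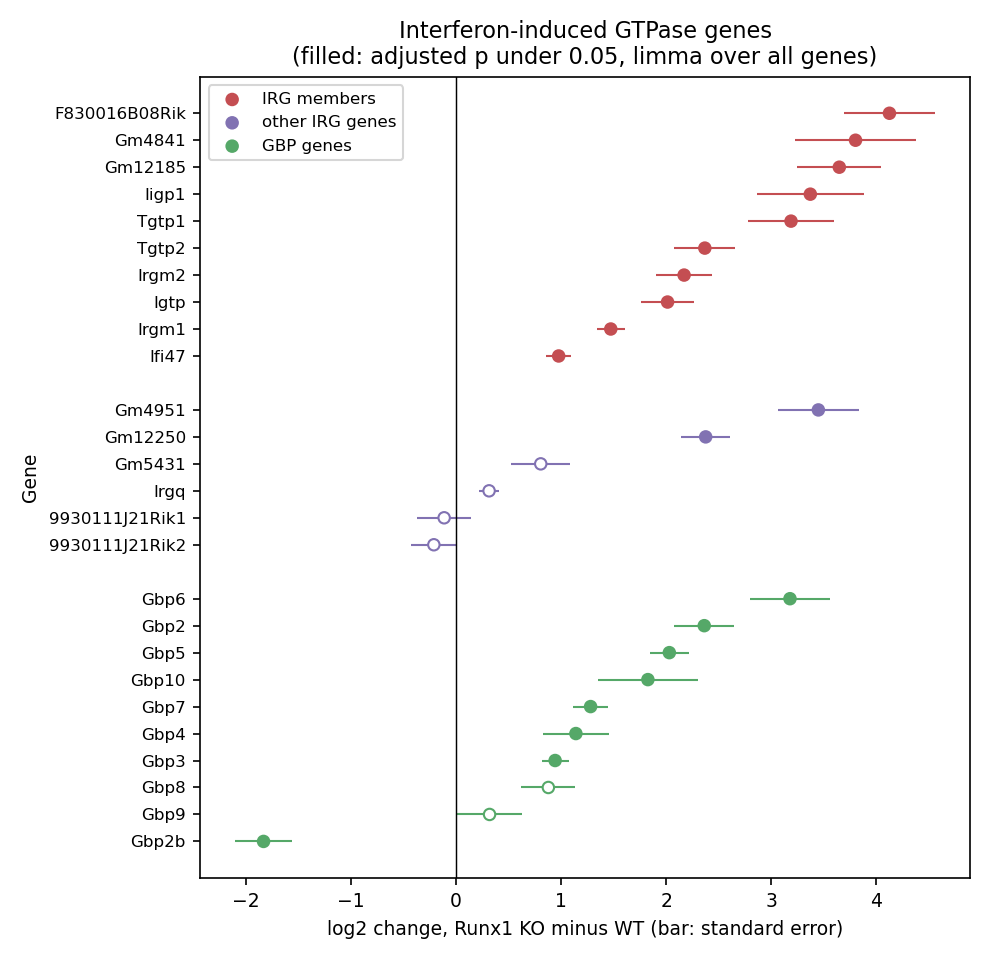
Log2 change between the groups (Runx1 KO minus WT, x axis) with its standard error for the 10 IRG members, 6 other IRG genes and 10 GBP genes; filled points have a limma adjusted p under 0.05 over all genes. The members run from 0.98 to 4.12, Gm4951 and Gm12250 lie in the same range, and Gbp2b is on the other side of zero.

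The GBP genes, which act with IRG proteins at the vacuole, moved largely the same way. Of 11 in the files 10 were tested, and 7 rose, 1 fell and 2 did not pass, with a median log2 change of 1.21. Of all tested genes 10.6% rose and 11.3% fell. Gbp6 had the largest rise, from 24.5 ± 9.50 to 230 ± 89.5 normalised reads (SD, n = 3; log2 change 3.18, SE 0.38, adjusted p 0.00325). Gbp2 followed with a log2 change of 2.36 (SE 0.28, adjusted p 0.00327) and Gbp5 with 2.03 (SE 0.19, adjusted p 0.00153). Gbp10, Gbp7, Gbp4 and Gbp3 rose by 1.83, 1.28, 1.14 and 0.94. Gbp10, with at most 33.7 normalised reads in a library, lost its call in every fit without a library except that without Runx1 KO replicate 3 (highest adjusted p 0.127, without Runx1 KO replicate 2). Gbp4 lost it without WT replicate 2, WT replicate 3, Runx1 KO replicate 1 or Runx1 KO replicate 2 (up to 0.138). Gbp2b went the other way, from 197, 314 and 178 normalised reads to 66.9, 74.3 and 47.7 (log2 change -1.83, SE 0.27, adjusted p 0.00570). Gbp8 and Gbp9, at 0.88 and 0.32, had adjusted p values of 0.0502 and 0.490; Gbp8 passed in 5 of the 8 alternative fits with all libraries.

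Upstream of the GTPases, the interferon ligands had few reads. Of 12 ligand genes listed only Ifng and Ifnb1 were in the files, and Ifnb1 was not tested. Ifng, which encodes interferon-gamma, had 47.5, 17.2 and 13.4 normalised reads under WT and 17.8, 1.98 and 0.995 under Runx1 KO (log2 change -2.28, SE 0.89, adjusted p 0.108). It passed, as lower, without Runx1 KO replicate 1 (adjusted p 0.0139). Its recovered reads were 48, 17 and 14 in WT replicates 1 to 3 and 17, 2 and 1 in Runx1 KO replicates 1 to 3. The relation of Ifng RNA to the IRG level was not tested.

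Among 6 receptor genes 3 rose and 1 fell, where 10.6% of all tested genes rose and 11.3% fell. Ifnar1, a chain of the type I receptor, rose from 2488 ± 126 to 3370 ± 270 normalised reads (SD, n = 3; log2 change 0.44, SE 0.08, adjusted p 0.00967), and Il10rb, a chain shared by the type III receptor, rose by 0.45 (adjusted p 0.00843). Ifngr1, the ligand-binding chain of the interferon-gamma receptor, rose by 0.27 (SE 0.06, adjusted p 0.0200), a call lost without WT replicate 1 (0.0533) or Runx1 KO replicate 2 (0.0825). Ifngr2 and Ifnar2 had log2 changes of -0.14 and 0.18 and adjusted p values of 0.374 and 0.0822, and Ifnar2 passed with library totals (0.0351). Ifnlr1, the specific chain of the type III receptor, fell by 2.11 (SE 0.51, adjusted p 0.0274), and kept its call only in the fit without Runx1 KO replicate 1 among the 6 that left out a library (otherwise up to 0.0945).

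Among the genes for signalling from the receptors, Stat2 rose by 0.51 (adjusted p 0.00486) and Irf9 by 0.65 (adjusted p 0.00490), each with its groups apart. The rise of Jak2, by 0.22 (adjusted p 0.0286), held, among the fits with a library left out, only in that without WT replicate 1 (otherwise up to 0.119).

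Among 7 IRF genes, Irf1 and Irf7 rose and Irf4 fell, where 10.6% of all tested genes rose and 11.3% fell. Irf1, the factor that acts on ISRE elements downstream of interferon-gamma, had 2650, 2496 and 2145 normalised reads under WT and 4119, 4137 and 2885 under Runx1 KO (log2 change 0.60, SE 0.15, adjusted p 0.0342). Its call was lost without WT replicate 2, WT replicate 3, Runx1 KO replicate 1 or Runx1 KO replicate 2 (adjusted p 0.0708 to 0.120). Irf7, which amplifies type I responses, rose by 0.90 (adjusted p 0.0148) and lost its call without WT replicate 2 (0.0508) or Runx1 KO replicate 2 (0.0620). Irf4, also a B-cell factor, had 5487, 703 and 1213 normalised reads under WT and 174, 34.7 and 52.7 under Runx1 KO (log2 change -4.59, SE 0.85, adjusted p 0.0117).

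Of 10 genes listed as inhibitors of the pathway 2 rose and 2 fell, where 10.6% of all tested genes rose and 11.3% fell. Usp18, an interferon-induced brake on the type I receptor, rose from 126 ± 16.4 to 270 ± 27.3 normalised reads (SD, n = 3; log2 change 1.10, SE 0.15, adjusted p 0.00429). Cish, of the SOCS family, rose by 0.97 (adjusted p 0.0201), and lost its call without WT replicate 2 (0.0610), WT replicate 3 (0.0579) or Runx1 KO replicate 2 (0.0715). Socs1 and Socs3 of that family did not pass (limma adjusted p 0.448 and 0.768). The phosphatase genes Ptpn6 and Ptpn1 fell by 0.55 and by 0.41 (adjusted p 0.00830 and 0.00998). A list of 11 genes held those of the autophagy-related conjugation system that guides IRG proteins to vacuoles, and Ubqln1, which is not part of that system. Of these 11 genes, 6, Ubqln1 among them, did not pass, 1 rose and 4 fell, where 11.3% of all tested genes fell. Gabarapl1 rose (log2 change 0.34, adjusted p 0.00915), and Atg7, Atg3, Gabarap and Atg5 fell by 0.56, 0.39, 0.36 and 0.24 (adjusted p 0.0291, 0.0186, 0.0326 and 0.0456). Of these 4 falls 2 remained without WT replicate 1, 1 without WT replicate 2 and 0 without Runx1 KO replicate 2 or 3.

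Genes of both lists of other interferon targets rose. Of 17 tested genes in the interferon-gamma list 9 rose and 0 fell, with a median log2 change of 0.71. At an unadjusted p under 0.05 limma had 1 of them lower, as DESeq2 did after adjustment and edgeR did not. The largest rises were those of Serpina3f (3.05, SE 0.51, adjusted p 0.00887), Serpina3g (2.34, SE 0.28, adjusted p 0.00328), Gvin1, a very large interferon-induced GTPase (2.04, SE 0.29, adjusted p 0.00488), and Batf2 (1.78, SE 0.32, adjusted p 0.0104). Of 26 type I targets 18 rose and 0 fell, with a median of 0.75, and 11 were called higher without Runx1 KO replicate 2. The largest were Ifi44 (2.20, SE 0.20, adjusted p 0.00142), Oasl2 (1.98, SE 0.19, adjusted p 0.00169), Ifit1 (1.93, SE 0.19, adjusted p 0.00209) and Mx2 (1.51, SE 0.32, adjusted p 0.0189), the last lost without Runx1 KO replicate 2 (0.0551) or replicate 3 (0.0503). By the same test 10.6% of all tested genes were called higher. Median changes of both lists were smaller than that of the IRG members, a difference that was not tested.

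**Figure D5:**
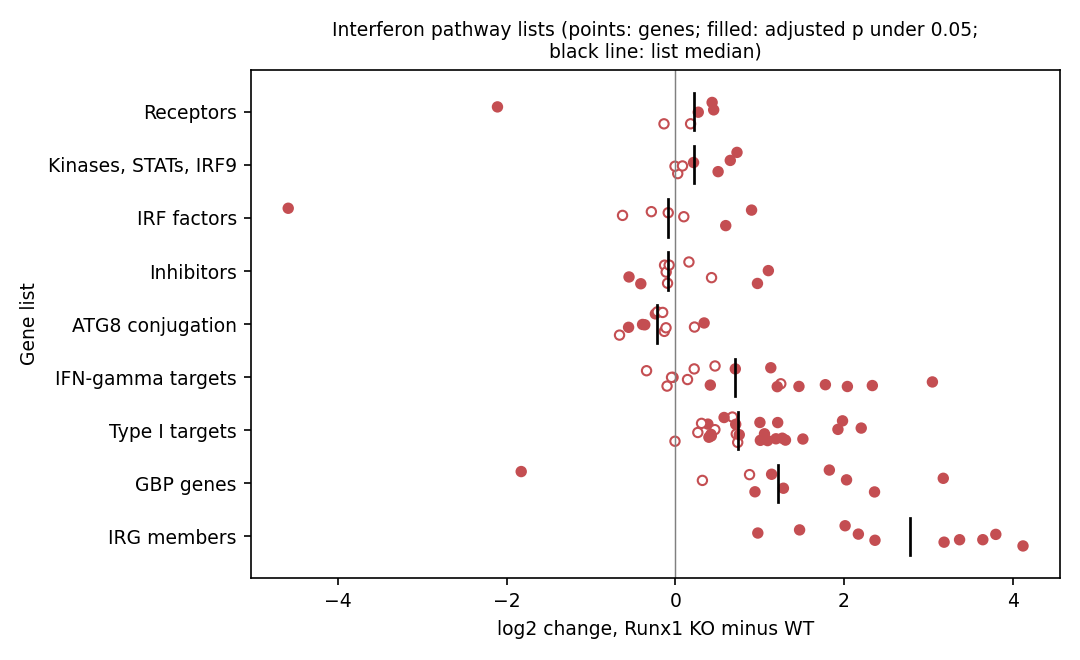
Log2 change (Runx1 KO minus WT, x axis) of each tested gene in 9 lists, filled where the limma adjusted p was under 0.05, with the list median as a black line. The IRG members have a median of 2.78, the GBP genes 1.21, the type I and interferon-gamma targets 0.75 and 0.71, and the conjugation list, which includes Ubqln1, -0.21.

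Among 12259 other tested genes with a mean of at least 50 normalised reads, 6 followed the summed IRG level most closely over the 6 libraries. They were Gm12250 (Pearson's r 0.999), Glce (0.998), Tnfrsf14 (0.997), Gbp7 (0.996), Ss18 (0.995) and Nlrc5 (0.994). These values describe the pattern and carry no test, and the 6 libraries they rest on fall into 2 groups. Size varied among them: the ratio of means was 5.31 for Gm12250, 2.78 for Nlrc5, a regulator of class I antigen presentation, and 2.45 for Gbp7, but 1.25 for Glce and 1.13 for Ss18.

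Outside the 10 members, genes with these motif letters moved in both directions. Of 13 tested genes with a GAS-type and an ISRE-type match whose starts lay at most 20 bases apart, 4 rose (Gm12250, Parp11, Gm26512 and Adgrg7) and 3 fell (Ncf1, Myd88 and Serpinb6a), names given after their values were seen. Of 358 such genes with an ISRE-type match 17.6% rose and 15.4% fell, against 11.6% and 11.9% of 10537 genes with a window. A RUNX-type sequence, TGTGGT on either strand, was in none of the 7 windows of members and in 14.0% of all windows, which says only that these letters are not in these stretches.

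Markers of other blood cells moved with the labels too, and the counts below stand beside 10.6% of all tested genes called higher and 11.3% called lower. All 6 B-cell markers fell, their sum going from between 6361 and 26475 normalised reads to between 936 and 2370, and all 6 neutrophil markers fell, from between 147080 and 205530 to between 24147 and 72310. Of 8 natural killer cell markers 2 fell (Gzmb and Nkg7; sums of 6214 to 7176 and then 4235 to 4587), and of 8 macrophage markers 2 fell (Adgre1 and Cd68; 23968 to 27608 and then 18819 to 23475). None of 8 T-cell markers passed (1025 to 1308 and then 329 to 1159), nor did any of 6 dendritic cell markers (4815 to 4965 and then 4274 to 5796). The dendritic list shares Flt3 with the progenitor list and Bst2 with the type I targets. These genes gave much of its sum, with means of 1687.8 and 1308.5 under WT and 2200.9 and 1629.7 under Runx1 KO. Siglech and Itgax were lower with their groups apart, from 497 ± 87.7 to 125 ± 178 and from 1087 ± 124 to 643 ± 256 (SD, n = 3). Bst2 was higher with its groups apart, and the limma adjusted p values were 0.0609, 0.0704 and 0.0654. At an unadjusted p under 0.05 limma had 2 T-cell markers lower, and 1 dendritic cell marker higher and 2 lower. Of these lists edgeR called 0 markers, and DESeq2 called 1 T-cell marker lower and 1 dendritic cell marker in each direction. Among 4 endothelial markers Kdr and Emcn rose and 0 fell (2812 to 3685 and then 2994 to 4216). Pecam1, whose groups overlapped, gave most of that sum, with means of 3185 and 3072. Kdr and Emcn had means of 54.7 and 59.2 under WT and of 171 and 155 under Runx1 KO. Cdh5 was lower with its groups apart, at 57.3 and then 32.1 (limma adjusted p 0.0765, and under 0.05 before adjustment). No marker was at 0 in all libraries labelled Runx1 KO. Runx1 KO replicate 2, which had the most IRG RNA, had the lowest sums of T-cell and macrophage markers of all 6 libraries, at 329 and 18819. It also had the highest progenitor sum, at 49487. Its natural killer cell sum, 4587, was the highest of its group, but Nkg7 alone gave 4463 of it. Every other natural killer cell marker was lower in Runx1 KO replicate 2 than in Runx1 KO replicate 1. Runx1 KO replicate 3, which had the least IRG RNA of its group, had T-cell and macrophage sums of 369 and 22478. Its B-cell and neutrophil sums, 936 and 24147, were the lowest of all 6 libraries. The order of these sums within the group therefore did not follow the IRG level in every list. The part of these shifts in the IRG difference was not tested.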

How the data were processed

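Per the labels' protocols, total RNA of c-Kit-positive bone marrow cells was made into poly-A-selected stranded libraries and sequenced on a HiSeq2500. HISAT2, HTSeq 0.9.1 and the build mm10 (GRCm38) are named in the submitters' processing notes; annotation, strand setting, the treatment of reads that fit several genes and the filter on low counts are not given in the sources used here. The values the authors deposited are a signal: reads per gene over the library's size factor, worked out from the values, as 100% of them in each library were whole multiples of the smallest positive value (tolerance 0.001). Those multiples are called recovered reads. The lowest total of a listed gene was 10 recovered reads. Intervals and floors on reads cover counting error only.

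From these values, log2(value + 1) was fitted with limma 3.58.1 (lmFit, eBayes with trend; group as the only term, two-sided, Benjamini-Hochberg over 15410 genes passing filterByExpr with minimum count 10 and total 15; threshold 0.05), which was tested on simulated data. Changes on this scale are understated for low genes. Symbols were matched by Ensembl identifier (20077 of 20097), and positions and exon lengths come from GENCODE M21. Alternatives were edgeR 4.0.16 (3261 genes called, against 3370 with limma) and DESeq2 1.42.0 on recovered reads, other scalings, pseudocounts and filters, a replicate block and leaving out each library. Named genes were all members, and list genes past the threshold with the receptors, Ifng, Irf1 and Irf9. Also named were the 4 largest changes in each target list and the 6 genes most like the family sum. Other IRG and GBP genes below the threshold, Socs1, Socs3 and the markers of other cells were named after their values were seen. The members and lists were chosen with earlier results of these data known. One gene of the lists is not reported here.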

Additional observations from a re-analysis of the deposited data

How the results depend on the processing

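All 10 members kept their direction and side of the threshold in all 8 fits with all libraries and in all 6 without a library, with log2 changes from 0.85 to 4.56. The log2 ratio of the family sum, 1.88, was 2.46 without the 2 most abundant members, Irgm1 and Ifi47, and 1.61 to 2.03 with a library left out. Whether the numbers 1 to 3 pair the libraries is not given in the sources used here. Deviations of same-numbered libraries correlated at 0.287, 0.129 and -0.0104, and not every library correlated best with its own number. With 3 libraries per group these values cannot settle whether the libraries were paired. With the replicate block 3843 genes were called against 3370, and the 10 members kept their calls; Ifng passed there as lower (adjusted p 0.0154). Called genes in the other interferon and GBP lists, 48 up and 9 down, numbered 31 to 46 and 4 to 14 with a library left out, and 47 to 52 and 8 to 13 otherwise. Over all genes, leaving out a library gave 1367 to 3597 calls, 632 to 1634 higher and 735 to 1963 lower, the fewest without Runx1 KO replicate 2; these fits have fewer samples. Of 396 values for other named genes with a library left out, 71 lost and 3 gained a call. The log2 change of 9930111J21Rik1, -0.11, was 0.030 without WT replicate 1 and 0.00646 without Runx1 KO replicate 3, within a range of -0.35 to 0.030 over the 6 fits without a library; the cause was not tested.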
